A study of Mus musculus with 6 samples.

Results

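The SOCS family is a set of 8 genes, Socs1 to Socs7 and Cish, that encode inhibitors of cytokine receptor signalling. The members were taken by gene symbol from tables of 46072 gene identifiers, and each symbol had 1 row. Levels were measured by polyA RNA-seq of splenic monocytes from 6 female C57BL/6 mice, 8 to 10 weeks old. The 3 Con mice received water by oral gavage, and the 3 Van mice received 2 mg of vancomycin per day as 2 gavages of 1 mg. Both groups were gavaged for 6 days and then rested without antibiotic for 6 to 8 days by the labels, and RNA was taken after 8 days of rest. All mice were of the same genotype, and the cells were not stimulated in culture. The monocytes were enriched from spleen with magnetic beads by removing other cell types, so each library is a bulk sample that also holds some remaining cells. There were 3 mice and 3 libraries per group, and each library is taken as 1 mouse. The comparison asks whether the family differed in resting monocytes after vancomycin. In separate cultures stimulated with a Toll-like receptor ligand, the paper reports stronger IL-6 and TNF responses of such cells after vancomycin. In mice injected during the rest period, it reports this for IL-6 but not for TNF.

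Cytokine receptors without enzyme activity of their own signal through JAK kinases, which phosphorylate STAT transcription factors. STAT factors in turn induce several SOCS genes, and the SOCS proteins then dampen the receptor that started the signal. Each member carries an SH2 domain, which binds phosphotyrosine, and a SOCS box, which recruits elongin B, elongin C and a cullin to mark the bound protein with ubiquitin. Socs1 and Socs3 also carry a short region that inhibits JAK kinases directly. In monocytes and macrophages, Socs1 is best known for restraining interferon gamma and Toll-like receptor responses, and Socs3 for restraining receptors of the IL-6, LIF and G-CSF type. Cish and Socs2 are classical targets of STAT5, Socs4 and Socs5 are best known for acting on the EGF receptor, and Socs6 and Socs7 for binding insulin receptor substrates and receptor tyrosine kinases.

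The start regions of Socs1, Socs3 and Cish are shown because each holds letters of the kind bound by the factors that induce them. RefSeq windows of 300 bases (GRCm38.p6, 250 before to 50 after a start site) matched 4 of the 8 members, Socs1, Socs3, Socs4 and Cish. The letters TTCNNNGAA, the STAT type, and GAAANNGAAA, the IRF type, were searched on both strands, with overlapping matches counted separately. Capitals mark the matches, and positions are counted from the start site, with 1 as its first transcribed base. Socs1 lies on chromosome 16 from 10782240 to 10785536 (GENCODE M21). The stretch shown, chr16:10785537-10785686 on the minus strand, lies immediately upstream of the annotated gene, and its overlapping IRF type matches span -83 to -74 and -77 to -68. The Socs3 stretch, chr11:117969367-117969616 on the minus strand, lies upstream of the coding transcript and partly in an exon of a non-coding Socs3 transcript, and its match spans -154 to -146. The Cish stretch, chr9:107296659-107296678 on the plus strand, holds bases 1 to 20 from the RefSeq start, in the first exon of the gene, with STAT type matches at 1 to 9 and 12 to 20.
Socs1: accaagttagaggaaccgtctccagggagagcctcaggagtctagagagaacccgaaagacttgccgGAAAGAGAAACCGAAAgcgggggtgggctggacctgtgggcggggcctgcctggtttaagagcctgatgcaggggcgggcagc
Socs3: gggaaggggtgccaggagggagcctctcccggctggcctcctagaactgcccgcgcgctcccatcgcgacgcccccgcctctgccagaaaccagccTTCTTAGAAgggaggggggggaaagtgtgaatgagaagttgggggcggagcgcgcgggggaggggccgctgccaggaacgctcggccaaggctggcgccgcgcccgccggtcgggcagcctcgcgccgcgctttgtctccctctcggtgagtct
Cish: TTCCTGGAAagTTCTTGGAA
Among 32851 windows of the same length, 8.30% held TTCNNNGAA and 0.457% held it at least 2 times, as Cish does. GAAANNGAAA stood in 3.44% of the windows and at least 2 times in 0.225%, as in Socs1. The Socs4 window held neither set of letters. A match describes the sequence and was not tested as a binding site.

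The libraries held 43383919 to 61834407 deposited counts each. All 8 members passed the filter on low counts and were tested among 16138 identifiers. Depth differed strongly between members. Socs3 had 7797 to 10540 counts per mouse, while Cish had 148 to 299 and Socs1 141 to 270. Cish, Socs1 and Socs2 were therefore the least precisely measured members. At the lowest library, counting error alone gave Cish a coefficient of variation of 13.4%, against 1.85% for Socs3, with the deposited counts rescaled to sequenced fragments.

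Socs3 was the most abundant member in every mouse. Levels between genes are compared as FPKM, fragments mapped to a gene, scaled by transcript length in kilobases and by library size. Socs3 stood at 52.4, 48.3 and 60.7 FPKM in Con replicates 1, 2 and 3 and at 56.7, 54.4 and 49.9 in the Van replicates. The groups overlapped, and the mean of 53.7 ± 4.57 FPKM (SD, n = 6 mice) lay above 95% of the 24194 identifiers detected in any mouse. Socs3 supplied 64.4% to 68.9% of the summed FPKM of the family in each mouse. The next member, Socs6, was 8.91 times lower on average, at 6.03 ± 0.709 FPKM.

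Below Socs3, a middle group held Socs6, Socs4 with 5.54 ± 0.527 FPKM, Socs7 with 5.37 ± 0.232 and Socs5 with 4.27 ± 0.336 (SD, n = 6). Socs1 followed with 2.74 ± 0.640 FPKM, and Socs2 with 2.53 ± 0.476. Cish was the lowest member, at 0.891 ± 0.275 FPKM. Neighbours in this order were compared within mice. For 4 of the 7 neighbour pairs the order was the same in 6 of 6 mice, namely Socs3 above Socs6, Socs7 above Socs5, Socs5 above Socs1, and Socs2 above Cish. Each of these had p = 0.03125 in an exact sign-flip test (two-sided), the smallest p that 6 mice allow, and p = 0.0547 after Benjamini-Hochberg adjustment over the 7 pairs. Socs6 and Socs4, Socs4 and Socs7, and Socs1 and Socs2 each kept the order in 4 of 6 mice. These 3 pairs were not separated beyond their spread, with exact sign-flip p of 0.219, 0.5625 and 0.719. The mean FPKM of Socs6 in Van mice, 5.57 ± 0.769, was close to that of Socs4, 5.54 ± 0.345, while in Con mice Socs6 stood at 6.49 ± 0.137 and Socs4 at 5.55 ± 0.758 (SD, n = 3).

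**Figure D1:**
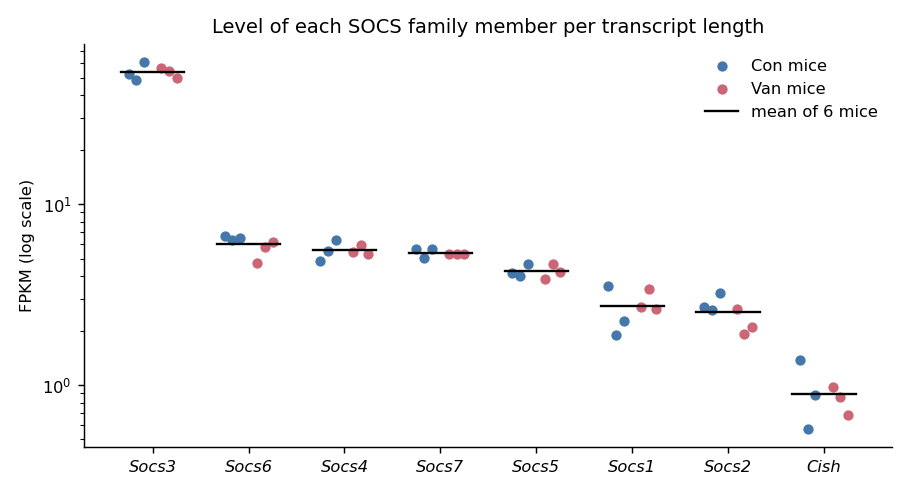
FPKM of each member (log axis) in the Con mice (blue points) and Van mice (red points), ordered by the mean of 6 mice (black line). Socs3 lies between 48.3 and 60.7 FPKM, above every other member in each mouse, and Cish has the lowest mean, 0.891 FPKM.

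Between Van and Con mice, 0 of the 8 members passed the test (edgeR quasi-likelihood, adjusted p of at most 0.05 over all 16138 identifiers), against 2.00% of all identifiers tested, 0.917% lower and 1.08% higher in Van. At an unadjusted p under 0.05 there were 2 members, Socs6 and Socs2, both lower in Van. This is read against 16.5% of all identifiers in either direction 8.14% lower and 8.37% higher. DESeq2 called 1 member, Socs6, and 6.40% of all identifiers, and had 2 members and 16.4% of all identifiers at an unadjusted p under 0.05. A limma fit of log2(FPKM + 1) called 0 members and 0.249% of the 16057 identifiers it tested, and had 0 members and 14.7% of those identifiers at an unadjusted p under 0.05. In sign, 7 of the 8 members were lower in Van, with a median log2 fold change of -0.04, against 50.4% and a median of -0.0014 over all identifiers tested. CPM, counts scaled by library size and the TMM factor, are used for the comparisons between Van and Con mice unless FPKM or transcript length is named.

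**Figure D2:**
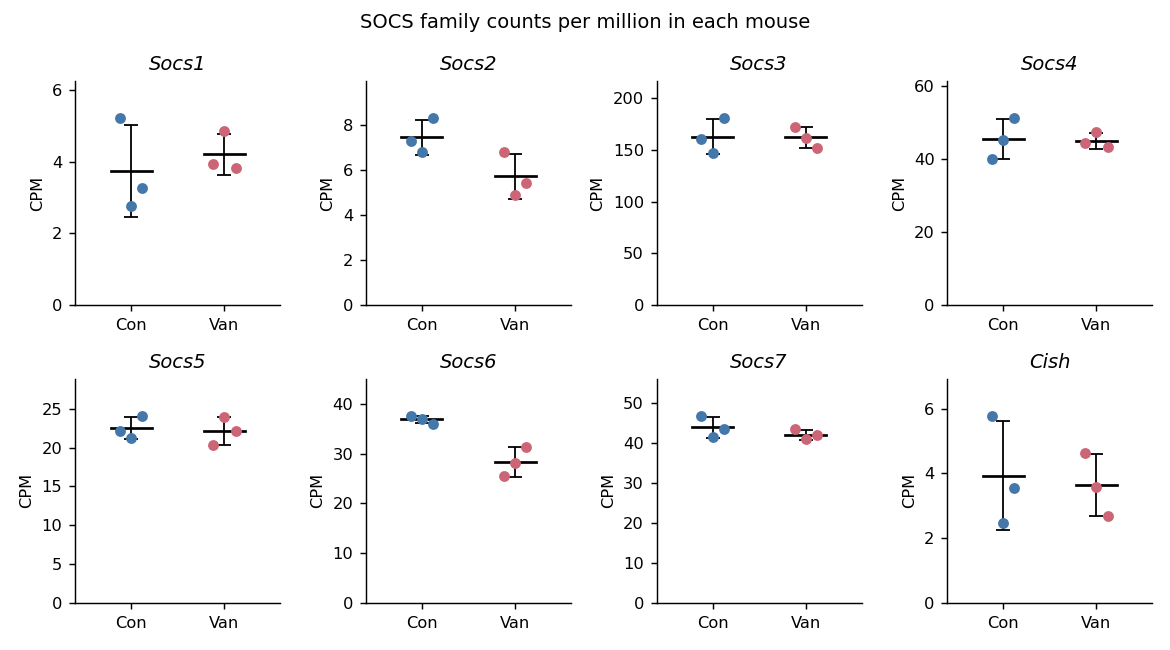
CPM of each member in the 3 Con and 3 Van mice, 1 point per mouse in replicate order from left to right, with the mean (line) and SD (bars). Each panel has its own axis from 0, and Socs6 is the only member whose groups do not overlap (36.0 to 37.5 against 25.4 to 31.4 CPM).

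Socs6, an adaptor that brings ubiquitin ligases to receptor tyrosine kinases such as KIT, had the smallest p of the family. It stood at 37.5, 37.0 and 36.0 CPM in the Con replicates and at 25.4, 28.2 and 31.4 CPM in the Van replicates. The highest Van mouse lay below the lowest Con mouse, a separation that 22.5% of all identifiers showed, 11.0% in the same direction. The means were 36.9 ± 0.753 in Con and 28.3 ± 2.98 in Van (SD, n = 3). The log2 fold change was -0.38 ± 0.08 (SE), a difference of -23.1% with a 95% interval from -32.8% to -12.1%. By edgeR the adjusted p was 0.0629, which did not pass, and it ranked 446 among the 16138 identifiers by p. The exact permutation test gave p = 0.10, the smallest that 3 against 3 mice allow. DESeq2 gave an adjusted p of 0.0039 with a log2 fold change of -0.38. When each mouse was left out in turn, the log2 fold change ranged from -0.46 to -0.31 and the edgeR adjusted p from 0.0598 to 0.195.

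The average transcript length assigned to Socs6 was also lower in each Van mouse than in any Con mouse. The ratio of a deposited count to FPKM returns the average transcript length that was assigned to a gene in each mouse. For Socs6 it was 4680, 4826 and 4732 bases in Con and 4505, 4163 and 4239 bases in Van. Here too the groups did not overlap, with means of 4746 ± 73.8 and 4302 ± 180 bases (SD, n = 3), a log2 difference of -0.14 and an exact permutation p of 0.10. Of 15557 genes with a length in every mouse, 3.08% were shorter in Van without overlap, and 2.26% were shorter by at least as much as Socs6. Leaving out each mouse gave log2 differences from -0.18 to -0.12. Because a deposited count is the product of coverage and length, both readouts share 1 source and part of the CPM difference is this length difference. Per length, Socs6 stood at 6.64, 6.36 and 6.48 FPKM in Con and 4.71, 5.80 and 6.19 FPKM in Van. With average length as an offset, an alternative chosen after the values were seen, the log2 fold change was -0.23 ± 0.10 (SE), with an edgeR adjusted p of 0.326. That fit called 0 members and 1.28% of all identifiers.

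In GENCODE M21 (GRCm38), Socs6 lies on the minus strand of chromosome 18, from 88665224 to 88927481, with 9 transcripts, of which 6 are protein-coding. They range from 370 bases to 6036 bases, and the longest is protein-coding. Which transcripts carried the difference was not resolved by these gene tables. The transcript models used for the deposited values need not be those of M21, since the Socs1 length in the tables is 1220 bases and the M21 transcripts of Socs1 have 2785 and 2908 bases. Lengths of Socs1, Socs4 and Socs5 were the same in every mouse, and those of Socs2, Socs3, Socs7 and Cish overlapped between groups. The length of Cish varied more between mice than that of Socs6. Its highest value was 19.4% above its lowest, against 15.9% for Socs6. A processed copy, Gm9449, matches 1006 bases of Socs6 at 96.7% identity and has no row in the tables, so the share of reads it could take or give is not known.

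**Figure D3:**
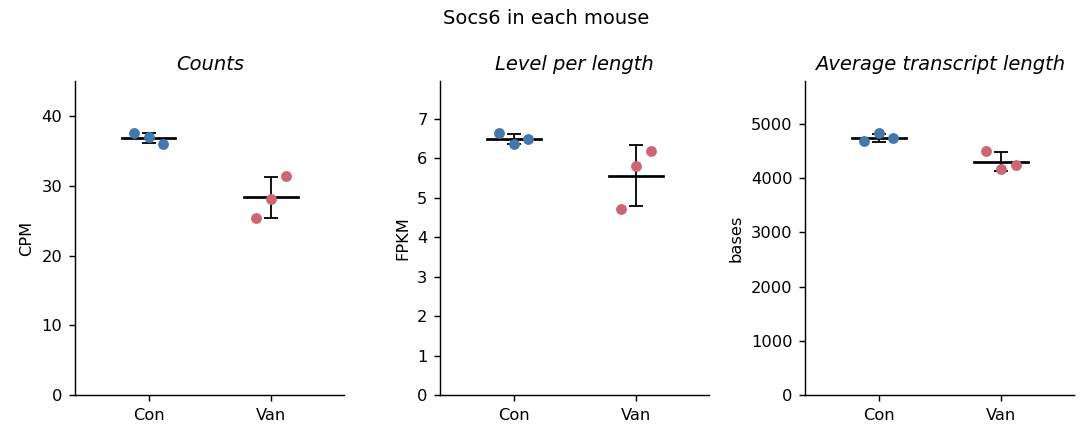
Socs6 in each of 3 Con and 3 Van mice as CPM (left), FPKM (middle) and assigned average transcript length in bases (right), with the mean (line) and SD (bars) and all axes from 0. In each panel every Van point lies below every Con point, with mean lengths of 4746 and 4302 bases.

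Socs2, which restrains growth hormone signalling and is induced through STAT5, was the other member with an unadjusted p under 0.05. The gene lies on the minus strand of chromosome 10, from 95385362 to 95417180 (GENCODE M21). It stood at 7.29, 6.79 and 8.30 CPM in Con and at 6.81, 4.90 and 5.44 CPM in Van. The groups touched, as Van replicate 1 lay just above Con replicate 2. The log2 fold change was -0.38 ± 0.16 (SE), close in size to that of Socs6 but with a wider 95% interval, -0.74 to -0.02. The edgeR adjusted p was 0.276 and the unadjusted p 0.0392, and an exact permutation test gave p = 0.20. The log2 fold change stayed between -0.53 and -0.28 when each mouse was left out. A near-identical copy, Gm9847, shares 599 bases with Socs2 at 99.5% identity and stood at 0.177 to 0.343 CPM, far below Socs2 itself, so Socs2 values are uncertain by the reads that could be assigned to either.

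Other known STAT5 targets were counted beside Socs2 and Cish. Of 11 tested, 2 fell in Van and 9 did not pass the test. At an unadjusted p under 0.05 there were 4, of which 2 were higher in Van, and DESeq2 called 4. The higher ones were Id1, an inhibitor of basic helix-loop-helix factors, with a log2 fold change of 0.87 and edgeR and DESeq2 adjusted p of 0.116 and 0.00863, and the cyclin gene Ccnd3, with 0.27 and adjusted p of 0.109 and 0.0150. The median over the list was -0.02 (log2 fold change). Tnfrsf13b, the receptor TACI, fell from 52.1 ± 2.13 to 35.9 ± 3.06 CPM (SD, n = 3), which is -0.54 ± 0.08 (SE) in log2 fold change, with an edgeR adjusted p of 0.0192. Bcl2, an inhibitor of apoptosis, fell from 127 ± 15.2 to 68.9 ± 15.3 CPM, which is -0.88 ± 0.15 in log2 fold change, with an adjusted p of 0.0313. Fits that left out a mouse called Tnfrsf13b in 2 of 6 cases, with adjusted p from 0.0315 to 0.0846, and Bcl2 in 1 of 6, with adjusted p from 0.0102 to 0.124. Both are also expressed by B cells, and cells carrying the B cell antigen CD45R were among those removed in the isolation. B cell markers were lower in Van in 10 of 10 cases, with 1 called, Ighm, and their summed level was 653 to 742 CPM in Con and 478 to 529 in Van. Most of that sum was Ighm, at 604 to 694 CPM in Con and 441 to 490 in Van, and its call held in 2 of 6 fits that left out a mouse, with edgeR adjusted p up to 0.0846. Their part in the STAT5 target values was not tested. In bulk samples, fewer cells of a type and less RNA per cell cannot be told apart.

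Socs1 and Cish varied more within the groups than between them. Socs1 stood at 5.21, 2.77 and 3.26 CPM in Con and 3.92, 4.86 and 3.83 CPM in Van. The Con mice spanned all Van mice, and the log2 fold change of 0.17 had a 95% interval from -0.39 to 0.73 (edgeR adjusted p = 0.812). Cish, the founding member of the family, lies on the plus strand of chromosome 9, from 107296026 to 107302784 (GENCODE M21), and 479 bases of its exons overlap the antisense gene Gm17041, which had at most 0.0167 CPM. It stood at 5.77, 2.47 and 3.56 CPM in Con and 4.62, 3.59 and 2.70 CPM in Van. Its highest Con mouse was 2.34 times the lowest, and the log2 fold change of -0.11 had a 95% interval from -0.84 to 0.62 (edgeR adjusted p = 0.914). These intervals include changes of more than 1.5 times in either direction for Cish and upward for Socs1. Both genes were highest in Con replicate 1, as were Socs6 and Socs7, so 4 of the 8 members had their highest CPM in that mouse, against 18.3% of all identifiers tested. Without that mouse the log2 fold change of Socs1 was 0.48, and that of Cish turned from -0.11 to 0.27, with neither past the test.

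Socs3, Socs4, Socs5 and Socs7 had narrow intervals that included 0. By GENCODE M21, Socs3 lies on chromosome 11 from 117966079 to 117970047, Socs7 on the same chromosome from 97362551 to 97398542, Socs4 on chromosome 14 from 47276931 to 47296102 and Socs5 on chromosome 17 from 87107679 to 87137839. Socs3 stood at 160.5, 147 and 180 CPM in Con and 172, 162 and 151.5 CPM in Van. The log2 fold change was -0.01 ± 0.08 (SE) with an edgeR adjusted p of 0.978, and the 95% interval, -0.20 to 0.18, corresponds to a difference from -12.9% to 13.6%. Socs4 ranged from 40.1 to 51.2 CPM in Con and from 43.3 to 47.5 in Van, with an interval of -14.4% to 14.7%. Socs5 ranged from 21.3 to 24.1 CPM in Con and from 20.3 to 24 in Van, with an interval of -14.3% to 13.3%. Socs7 ranged from 41.5 to 46.7 CPM in Con and from 40.9 to 43.4 in Van, with an interval of -13.9% to 6.59%. In these 4 members the Con and Van mice overlapped, and the edgeR adjusted p ranged from 0.726 for Socs7 to 0.978 for Socs3. A missed threshold does not show that the levels were equal, and differences inside these intervals were not excluded. The intervals are not limits of detection. Socs6, at -23.1% with an SE close to that of Socs3, also missed the adjusted threshold by edgeR.

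**Figure D4:**
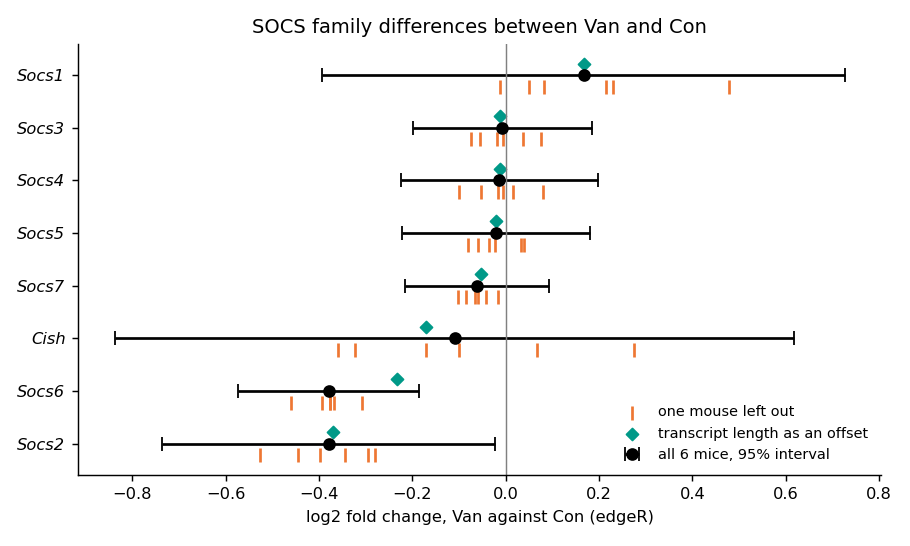
Log2 fold change of Van against Con for each member by edgeR, with the 95% interval (black), the values with each of the 6 mice left out (orange ticks) and the value with average transcript length as an offset (green diamonds). The intervals of Socs3, Socs4, Socs5 and Socs7 are narrow and include 0, those of Socs1 and Cish are the widest and include 0, and the intervals of Socs6 and Socs2 lie below 0 before adjustment.

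Among cytokines that induce SOCS genes, 8 of 17 were high enough to test and 6 had no counts in any mouse. In this list 1 gene fell and 7 did not pass. Lif, an IL-6 family cytokine whose receptor Socs3 restrains, stood at 9.12, 10.8 and 11.1 CPM in Con and 7.11, 6.51 and 5.66 CPM in Van. The log2 fold change of Lif was -0.68 ± 0.13 (SE) with an edgeR adjusted p of 0.0411. The call was lost when any mouse was left out, with adjusted p from 0.0545 to 0.148, and with average length as an offset, adjusted p 0.254.

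Of 33 cytokine receptor chains tested, 1 rose and 32 did not pass, and the median was 0.05 on the log2 scale. DESeq2 called 3, and 9 had an unadjusted p under 0.05, 6 higher and 3 lower in Van. The one that rose was Lifr, the receptor for LIF. It stood at 36.7, 37.2 and 42.0 CPM in Con and 101.7, 84.6 and 73.4 CPM in Van. Every Van mouse lay well above every Con mouse. The log2 fold change was 1.16 ± 0.12 (SE) with an edgeR adjusted p of 0.00537, and it passed the test in all 6 fits that left out a mouse. Lif, Lifr and Socs3 thus had log2 fold changes of -0.68, 1.16 and -0.01.

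Among the signalling enzymes and factors, 0 of 4 JAK kinases and 0 of 7 STAT factors passed the edgeR test. At an unadjusted p under 0.05 there were 1 JAK kinase and 3 STAT factors. Jak2 had the smallest p of the kinases, with a log2 fold change of -0.20 and an adjusted p of 0.291. Stat2, which acts in type I interferon signalling, had the smallest p of the factors, with 162 ± 12 CPM in Con and 134 ± 8.08 in Van (SD, n = 3). Its log2 fold change was -0.27 with an edgeR adjusted p of 0.104. DESeq2 called 2 factors, Stat2 lower and Stat6 higher, and 0 kinases.

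Of 10 ligase partners of the SOCS box tested, 0 passed the edgeR test or an unadjusted p under 0.05, 0 were called by DESeq2, and the median log2 fold change was 0.02. Cul2, a cullin scaffold, had the smallest p, with a log2 fold change of 0.11 and an adjusted p of 0.591. Elongin C (Tceb1 in the tables) stood at 35.7 ± 1.56 CPM in Con and 36.6 ± 1.96 in Van, and Cul5, the cullin most used by the family, at 32.4 ± 1.94 and 30.3 ± 1.76 (SD, n = 3). Of 17 other genes with a SOCS box, 0 passed by edgeR, by DESeq2 or at an unadjusted p under 0.05, and the median log2 fold change was 0.05. Asb14 had the smallest p there, at 1.18 ± 0.328 CPM in Con and 1.92 ± 0.585 in Van, with an edgeR adjusted p of 0.320.

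Targets of STAT3 and STAT6 were counted because Socs3 and Socs1 restrain these factors. Of 14 STAT3 targets tested, 0 passed by edgeR or DESeq2 and 0 had an unadjusted p under 0.05. Their log2 fold changes had a median of -0.0073. Etv3 had the smallest p, with an edgeR adjusted p of 0.319. Of 9 STAT6 targets tested, 0 passed by edgeR or DESeq2 and 1 had an unadjusted p under 0.05. That gene was Ccl22, a chemokine, with a log2 fold change of -0.41 and an edgeR adjusted p of 0.232.

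Inhibitors of the same pathways outside the family gave 0 calls by edgeR. Of 13 other JAK-STAT inhibitors, 4 had an unadjusted p under 0.05, and DESeq2 called 1. Usp18, which restrains the type I interferon receptor, had the smallest p, with a log2 fold change of -0.33 and an edgeR adjusted p of 0.148. Of 14 feedback inhibitors of Toll-like receptor and NF-kB signalling, 1 had an unadjusted p under 0.05 and the same number was called by DESeq2. This was Cyld, a deubiquitinase, at 130.5 ± 4.17 CPM in Con and 110.6 ± 3.18 in Van, with a log2 fold change of -0.24 and an edgeR adjusted p of 0.0715. Immediate early genes, which respond within minutes to many stimuli, had 0 of 19 called by edgeR. At an unadjusted p under 0.05 there were 8, all higher in Van, and DESeq2 called 3. Over all identifiers tested, 8.37% were higher in Van at that edgeR p and 6.40% were called by DESeq2. Ier2 had the smallest p of that list, with a log2 fold change of 0.23 and an edgeR adjusted p of 0.0727. The median log2 fold change of that list was 0.11, and its part in the SOCS values was not tested.

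Genes whose pattern over the 6 mice was nearest to that of a member were listed for the 3 members of highest FPKM. Likeness was the root mean square difference of log2 CPM, each gene centred on its own mean. For Socs6, whose own root mean square deviation was 0.212, the nearest were Mndal, at 0.0326, and St8sia4, at 0.0465. For Socs3, with a deviation of 0.10, they were Spen, at 0.0235, and Gm37305, at 0.0257. For Socs4, with a deviation of 0.109, they were Arhgap4, at 0.0247, and Cbx3, at 0.0278. These are descriptions over 6 mice.

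The monocyte label was checked with marker lists. All 10 monocyte markers were detected, with summed levels of 19340 to 20330 CPM in Con and 17430 to 19440 in Van, of which Lyz2 was the largest part. At an unadjusted p under 0.05 there were 5, 4 lower and 1 higher in Van, with 2 called by edgeR and 3 by DESeq2. Ccr2, the chemokine receptor of classical monocytes, fell from 731 ± 44.8 to 411 ± 83.7 CPM (SD, n = 3, edgeR adjusted p = 0.0283), and Fcgr1 fell from 75.6 ± 2.2 to 60.4 ± 1.57 CPM (adjusted p = 0.0328). Fits that left out a mouse called Ccr2 in 2 of 6 cases and Fcgr1 in 0 of 6, with adjusted p up to 0.0930 and 0.117 (edgeR). T cell markers summed to 43.6 to 58.3 CPM in Con and 33 to 45.8 in Van, with 0 of 10 called by edgeR, 3 at an unadjusted p under 0.05, and 1 called by DESeq2, Cd247 (log2 fold change -1.22, edgeR adjusted p = 0.122). Cd3e stayed under 1 CPM in every mouse. NK cell markers summed to 29.6 to 45.6 CPM in Con and 17.8 to 26.8 in Van, and 1 of 6 tested fell, Klrk1 (log2 fold change -0.90, edgeR adjusted p = 0.0495). Most of that sum was Klrk1, at 24.7 to 38.2 CPM in Con and 14.0 to 20.8 in Van. In sign, 4 of the NK markers tested were lower and 2 higher in Van. Dendritic cell markers were lower in Van in 8 of 10 cases and summed to 538 to 595 CPM in Con and 500 to 572 in Van. Of these, 1 fell by edgeR, Clec9a of cross-presenting dendritic cells (log2 fold change -1.12, adjusted p = 0.0131), and DESeq2 called 4. Erythroid markers rose in 5 of 8 cases, namely the globin genes Hba-a1, Hba-a2, Hbb-bs and Hbb-bt and the haem synthesis gene Alas2, with log2 fold changes from 1.76 to 2.08 and sums over the list of 83.6 to 172 CPM in Con and 288 to 627 in Van. Leaving out a mouse lost the call of Klrk1 in 5 of 6 fits, of Clec9a in 2, and of each erythroid gene in at least 2. Red pulp macrophage markers summed to 3806 to 4526 CPM in Con and 4378 to 5735 in Van, with 0 of 10 called by edgeR, 4 at an unadjusted p under 0.05 and 2 called by DESeq2. Vcam1 had the smallest p there (log2 fold change 0.46, edgeR adjusted p = 0.0621). Plasma cell, neutrophil, eosinophil and basophil, and platelet lists had 0 calls by edgeR and 2, 0, 0 and 2 genes at an unadjusted p under 0.05, with the smallest p for Sdc1, Ngp, Siglecf and Itga2b. The first of these lists had 1 gene called by DESeq2 and the other 3 had 0. The groups thus also differed in markers of cell types and monocyte subsets, and the part of these in the values of Socs6, Socs2, Lif and Lifr was not tested.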

How the data were processed

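RNA-seq libraries (stranded, polyA) were made by the authors from splenic monocytes. Per the labels, reads were aligned with HISAT2 2.2.1 to GRCm38 and handled with SAMtools 1.9, and FPKM values were computed with StringTie 2.1.3 and Ballgown. The authors then converted these to gene counts with tximport, and the deposited table holds these estimated counts, which are not whole. The annotation release is not given in the sources used here. Once multiplied by 75, 52.3% to 55.0% of the non-zero deposited counts are whole within 0.05, against 9.56% to 9.98% when multiplied by 74, so part of the table lies on steps of 1/75. The other counts do not, and multiplying by 0.375 puts the table only roughly on the scale of sequenced fragments. More counts than fragments make count-based precision look better than it is, and this was tried as an alternative. Counting errors given cover counting only.

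Counts were rounded to whole numbers. Groups were taken from the sample labels. The main test was edgeR 4.0.16 (R 4.3.3): TMM scaling, filterByExpr with a minimum count of 10, a quasi-likelihood fit of 3 Con against 3 Van mice without covariates, and Benjamini-Hochberg adjustment over 16138 identifiers, with calls at an adjusted p of at most 0.05. Alternatives were DESeq2 1.42.0, other scalings and filters, limma 3.58.1 on log2(FPKM + 1) and log2(FPKM + 0.1), a replicate block and leaving out each mouse. Levels were compared as log2(FPKM + 0.1) within mice by exact sign-flip tests. Average transcript length as an offset, and leaving out mice for that length, were added after the data were seen.

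All members were named. From every other list given, each called gene or else the gene of smallest p was named, and for the 3 members of highest FPKM the 2 nearest genes with a mean of at least 1 CPM. Elongin C, Cul5, Stat6, Id1, Ccnd3, Lyz2 and Cd3e were named after their values were seen. The members and lists were chosen with earlier results of these data known. A further gene list is not reported here. Sequences came from RefSeq (GRCm38.p6). Mice given vancomycin and a bacterial lipid are part of the published study and were not analysed here.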

Additional observations from a re-analysis of the deposited data

How the results depend on the processing

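The count of members called was 0 under every alternative except DESeq2, which called 1 (Socs6). The count of all identifiers called moved from 322 to 1033 by DESeq2, 40 by limma on log2(FPKM + 1), 64 with the pseudocount 0.1, and 206 with average length as an offset. Leaving out any of the 6 mice moved it to between 24 and 170, the lowest without Con replicate 3. Scaling, filter and fragment-scale alternatives kept it within 1.5 times, at 320 to 391.

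With a replicate block the count was 110 and 0 members were called. Same-numbered Con and Van mice had deviation correlations of 0.114, -0.0644 and -0.235 over 11458 genes. Van replicate 1 correlated best with Con replicate 1, and Van replicates 2 and 3 with Con replicates 3 and 2. The deviations were taken from means of 3 mice, so these correlations cannot decide whether the numbers pair the mice.

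Over fits leaving out each mouse, log2 fold changes crossed 0 for Cish (-0.36 to 0.27), Socs1 (-0.0129 to 0.48), Socs3 (-0.0751 to 0.0752), Socs4 (-0.10 to 0.0803) and Socs5 (-0.0818 to 0.0383), all uncalled in the main test. Socs2, Socs6 and Socs7 kept their sign in all 6. The edgeR, DESeq2 and limma fits with all mice gave Socs6 log2 fold changes from -0.38 to -0.21 and adjusted p from 0.0039 to 0.365. Cish, Socs1 and Socs2 had few fragments and 3 mice per group, which limits the precision of their values.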
